A study of Mus musculus with 12 samples.

Results

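Heat shock proteins and chaperonins are the machines that fold, hold and disassemble other proteins, and this account follows them through mouse liver under a high-fat diet with or without lycopene, the red carotenoid of tomatoes. The set was defined by gene symbol, and the choice was made with earlier results of these data known. It holds the numbered Hspa, Hspb, Hspd, Hspe and Hsph genes and the Hsp90 genes. It also holds the Dnaja, Dnajb and Dnajc genes and the chaperonin genes Cct2 to Cct8 and Tcp1. It came to 82 of the 25033 entries in the table of ribosome profiling values.

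The animals were male C57BL/6 mice aged 16 weeks, whose liver was collected after 8 weeks on a diet begun at 8 weeks of age. Both groups ate the high-fat diet, so it is common to every library. The control group (HFD) received that diet alone, and the lycopene group (LYC) received it with lycopene mixed into the feed, an addition given by the sample titles and the methods of the study, since the treatment entry of both groups names the high-fat diet only. Ribosome profiling (Ribo-seq, sequencing of the mRNA stretches that ribosomes protect from nuclease) was deposited for 3 HFD and 3 LYC libraries as RPKM, reads per kilobase of gene scaled to the mapped reads of the library. The protocol describes pooling of digested material, and although the study calls the libraries biological replicates, no label says that each came from its own mouse, so p-values measure only the spread between these libraries.

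HSP70 proteins grip exposed greasy stretches of unfolded chains in a cycle driven by ATP. J proteins (the DNAJA, DNAJB and DNAJC families) bring clients to HSP70 and trigger its ATPase, HSP110 proteins release the spent nucleotide, and HSP90 finishes the folding of signalling proteins such as kinases and steroid receptors. Chaperonins are hollow rings that enclose a chain while it folds: CCT in the cytosol takes actin and tubulin, and HSP60 with its lid HSP10 serves the mitochondrial matrix. The cytosol, the endoplasmic reticulum (ER) and the mitochondrion each keep their own HSP70, and in the cytosol many of these genes are read by heat shock factor 1, while many ER chaperones belong to the unfolded protein response.

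The libraries differed in depth, and depth moved with the group. The library totals implied by the RPKM steps were between 834410 and 4405541 reads in HFD and between 311050 and 412116 in LYC. By these totals the shallowest HFD library held 2.02 times the reads of the deepest LYC library. The reads recovered on listed genes came to between 646462 and 3925840 in HFD and between 270197 and 354881 in LYC. Lycopene and depth therefore cannot be told apart by design, and 1 read on a gene of 1 kilobase was worth 0.227 to 1.20 RPKM in HFD and 2.43 to 3.21 RPKM in LYC. Values below are scaled RPKM, the deposited RPKM divided by the TMM factor of its library (trimmed mean of M values, between 0.801 and 1.26). Liver identity held in both groups: the 6 hepatocyte markers summed to between 33776 and 37581 scaled RPKM in HFD and between 28013 and 39351 in LYC, and 2 of them, Cps1 and Pck1, were called higher. The summed markers of Kupffer cells (120 to 131 in HFD, 123 to 173 in LYC), endothelium (56.8 to 79.4 and 22.5 to 130), stellate cells (85.7 to 159 and 101 to 138), blood (570 to 1098 and 837 to 989) and muscle (30.6 to 78.7 and 26.2 to 44.8) overlapped between the groups, although for muscle only Acta1 was above 0 in LYC, with Ckm, Myh4, Mb and Tnnt3 at 0 there. Those of cholangiocytes were lower in LYC (15.0 to 23.7 in HFD, 3.61 to 9.21 in LYC, with Krt7, Krt19 and Epcam at 0). Most of that sum was Spp1, on 231 reads in HFD and 8 in LYC. Krt7, Krt19 and Epcam held only 16, 6 and 10 HFD reads, so at the depth of LYC their zeros are not a detectable difference. The muscle genes at 0 in LYC held 36 (Ckm), 12 (Myh4), 72 (Mb) and 7 (Tnnt3) HFD reads. The part of the muscle and cholangiocyte genes in the results was not tested. In bulk liver, fewer cells of a type and less RNA per cell cannot be told apart.

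A second deposited table, labelled RNA-seq, gave no independent reading of these genes. Each of its libraries held nearly the same reads for the members as 1 Ribo-seq library. Among members with at least 20 reads in the pair, 56 of 58, 56 of 62 and 43 of 48 agreed within 10% for the HFD libraries and 33 of 35, 36 of 37 and 36 of 38 for the LYC libraries. The LYC libraries matched under the same replicate number, whereas Ribo-seq HFD 1, 2 and 3 matched the RNA-labelled HFD 3, 1 and 2. Whether the values reflect ribosome footprints or mRNA can therefore not be settled from these tables, and no translational efficiency was computed.

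Of the 82 members, 74 had a value above 0 in some library and 44 held enough reads to be tested. LYC was compared with HFD by limma on log2(scaled RPKM + 1) over all 5667 genes tested, a scale that understates the change of low genes. The limits for a call were a log2 fold change beyond 1 in either direction and p under 0.01. The test called 14 members higher in LYC and 1 lower, or 31.8% and 2.27% of those tested, whereas 6.97% of all tested genes were called higher and 6.49% lower (13.5% in either direction). The members that rose were Hspa8, Hspa1b, Hspa9, Hspa4, Hspa4l, Hsp90aa1, Dnaja1, Dnaja2, Dnajb4, Dnajc2, Cct4, Cct5, Cct6a and Cct8, and the member that fell was Dnajc22. All 15 had groups that did not overlap and Benjamini-Hochberg adjusted p-values of at most 0.0427. On scaled RPKM, 19 tested members had every LYC library above every HFD library and 4 had every LYC library below. The backgrounds were 18.7% and 19.3% of tested genes (38% without overlap in either direction). The median log2 fold change was 0.56 over the tested members and -0.10 over all tested genes.

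**Figure D1:**
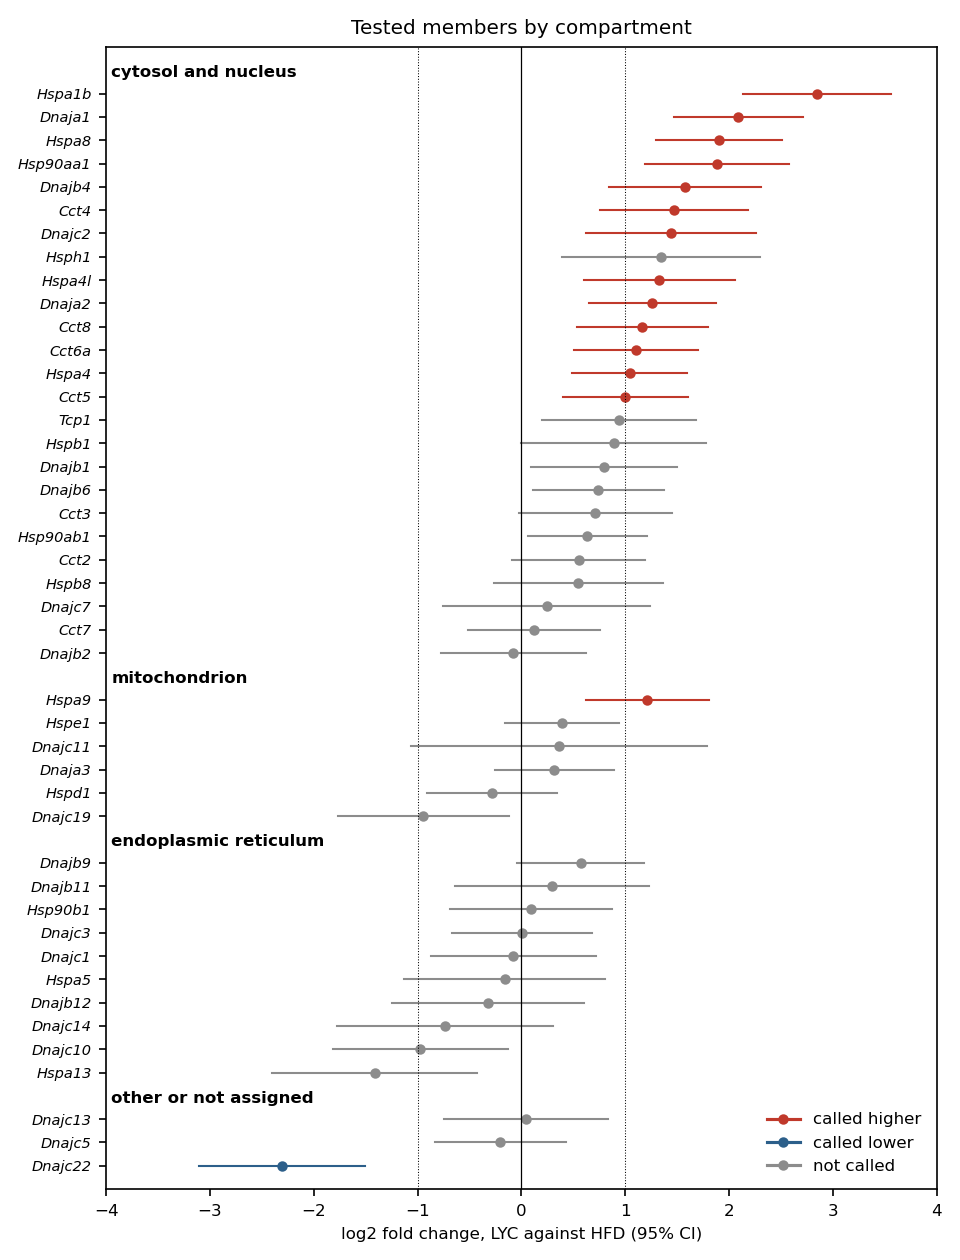
Log2 fold change of LYC over HFD (limma on log2(scaled RPKM + 1), bars show the 95% confidence interval, 3 libraries per group) for the 44 members tested, ordered by compartment. The 14 members called higher lie between 1.00 and 2.85, 13 of them in the cytosol and nucleus, and Dnajc22 lies at -2.31.

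The calls were unevenly placed among the compartments of the cell. Of all tested genes, 6.97% were called higher and 6.49% lower. Of the 45 members assigned to the cytosol and nucleus, 25 were tested and 13 rose, none fell, and 24 of the 25 had a fold change above 0 (44.9% of all tested genes did), with a median of 1.04. Of the 13 ER members, 10 were tested and none was called (limma; Hspa13 and Dnajc10 were called lower with scaling by total library size), with a median of -0.12. Of the 8 mitochondrial members, 6 were tested and only Hspa9 was called, with a median of 0.34. With scaling by total library size, the call of Hspa9 was lost and Dnajc19 was called lower. Of the 16 members placed elsewhere or without a clear place, 3 were tested and Dnajc22 fell. With so few members tested outside the cytosol and nucleus, those counts cannot be set apart from the shares of all tested genes. The difference between compartments was not tested, and compartments were assigned with earlier results of these data known.

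Summed over its members, the cytosolic set stood at 1211, 1085 and 1112 scaled RPKM in HFD and at 3477, 3046 and 2133 in LYC, a 2.54-fold difference of the means (1136 ± 66.3 and 2885 ± 686, SD, n = 3). The groups were far apart, although the LYC libraries spread more widely than those of HFD and LYC 3 was the lowest of them. On the RPKM as deposited the means were 1257 ± 115 for HFD and 2604 ± 569 for LYC (SD, n = 3), 2.07-fold, again without overlap. The ER set summed to 913, 368 and 626 in HFD and to 703, 440.1 and 613 in LYC, with the groups interleaved and HFD itself spread widely. The mitochondrial set gave 575, 587 and 549 against 828, 825 and 528, where LYC 3 fell below every HFD library.

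As a share of all chaperone signal in a library, a measure that scaling between libraries cannot move, the cytosol took 42.8%, 49.9% and 45.2% in HFD but 68.7%, 69.7% and 63.7% with lycopene. The mitochondrial share ran the other way, from 20.3%, 27.0% and 22.4% in HFD to 16.4%, 18.9% and 15.8% in LYC, with no overlap. The ER share of 32.3%, 16.9% and 25.5% in HFD overlapped the 13.9%, 10.1% and 18.3% of LYC. Shares within a whole move against each other by construction, so the lower mitochondrial share goes with a mitochondrial sum that overlapped between the groups. A few genes carried most of the signal. The 8 members most abundant in HFD, Dnajc22 among them, made up 65.7% of it in HFD. The same 8 members, not ranked anew in LYC, made up 61.6% there.

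**Figure D2:**
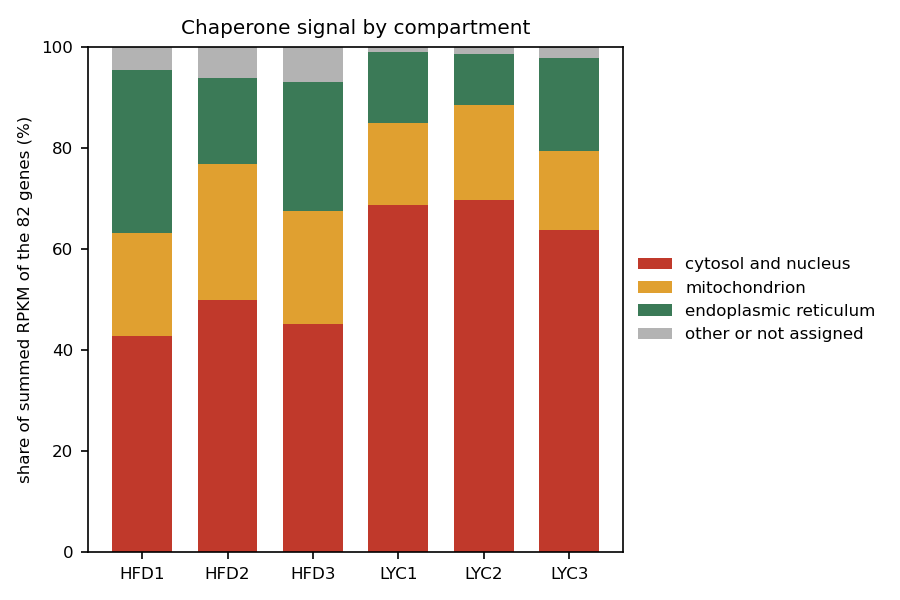
Share of the summed chaperone RPKM (percent, y axis) held by each compartment in each of the 6 libraries. The cytosolic share is 42.8% to 49.9% in HFD and 63.7% to 69.7% in LYC.

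Among the HSP70 proteins of the cytosol, Hspa8 (Hsc70, the constitutive workhorse that also uncoats clathrin vesicles, GRCm38 chr9:40801276-40805202) was the most abundant member in every LYC library and was level with Hspa5 in the HFD mean. It stood at 308, 309 and 268 scaled RPKM in HFD and at 1349.5, 1235 and 798 in LYC. Every LYC library was thus above every HFD library, and the rise came to 3.83 times the mean (295 ± 23.4 to 1127 ± 291, SD, n = 3; log2 fold change 1.90, SE 0.27, limma adjusted p = 0.00422).

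Hspa1b (chr17:34956429-34959238), 1 of the neighbouring pair of heat-inducible HSP70 genes, showed the highest fold of the members tested. It stood at 2.89, 4.15 and 4.16 in the HFD libraries and at 43.9, 28.5 and 28.1 in those of LYC, so that it went from nearly silent to the level of a middling chaperone, 8.97 times its HFD mean (log2 fold change 2.85, SE 0.31, limma adjusted p = 0.0011). It remained a minor HSP70, at 0.0128 ± 0.00313 of the Hspa8 level in HFD and 0.0303 ± 0.00639 in LYC (SD, n = 3), a ratio without overlap. The values rested on 98 reads in HFD and 94 in LYC. Its twin Hspa1a codes for a nearly identical protein and held 6 and 3 reads, too few to test. In the RNA-labelled table, which holds nearly the same reads, the 102 and 93 reads of the pair were divided into 41 for Hspa1a and 61 for Hspa1b in HFD and 37 and 56 in LYC, so the split between the twins is uncertain, whereas their summed reads were nearly the same in both tables. That sum, 3.01, 4.47 and 4.16 scaled RPKM in HFD and 45.1, 30.7 and 28.1 in LYC, kept the groups apart.

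Among the J proteins that feed cytosolic HSP70, 4 rose in LYC. Dnaja1, a farnesylated J protein that works with Hspa8, stood at 46.7, 37.9 and 34.0 in HFD and at 232, 156 and 136 in LYC. The rise, 4.41 times the mean (39.6 ± 6.48 to 175 ± 50.4, SD, n = 3; log2 fold change 2.09, SE 0.27, limma adjusted p = 0.00293), was of the order of that of Hspa8, and the ratio of Dnaja1 to Hspa8 overlapped between the groups, at 0.152, 0.123 and 0.127 in HFD and 0.172, 0.127 and 0.170 in LYC. Its close relative Dnaja2 was at 24.6, 24.6 and 17.1 in HFD and at 61.5, 44.7 and 56.5 in LYC (1.26, SE 0.27, limma adjusted p = 0.0207). Dnajb4, a J protein of the Dnajb1 type, was at 2.60, 3.85 and 4.55 against 15.1, 13.2 and 10.3 (1.58, SE 0.32, adjusted p = 0.0185). Dnajc2 (MPP11 or zuotin), which sits on the ribosome and meets chains as they emerge, went from 3.29, 5.20 and 3.44 to 18.6, 11.0 and 9.05 (1.44, SE 0.36, adjusted p = 0.0351). None of these groups overlapped.

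Dnajb1 (Hsp40), the J protein usually paired with inducible HSP70, was at 4.45, 6.20 and 5.81 in HFD and 9.45, 12.7 and 8.74 in LYC, without overlap but short of the call (0.80, SE 0.31, limma adjusted p = 0.125). Dnajb6, a suppressor of polyglutamine aggregation, was likewise separated but not called, at 27.5, 21.2 and 20.6 against 34.7, 33.1 and 51.3 (0.74, SE 0.28, adjusted p = 0.117). On the RPKM as deposited both genes overlapped. Dnajb1 was at 7.83 in HFD 2 and 7.57 in LYC 1, and Dnajb6 at 28.6 in HFD 1 and 27.8 in LYC 1. Dnajb2 and Dnajc7 overlapped between the groups, with log2 fold changes of -0.08 and 0.24. Over all compartments, the DNAJA family summed to 2.96 times its HFD level and DNAJB to 1.42 times, both without overlap on scaled RPKM. On the RPKM as deposited, LYC 1 fell just below HFD 1 for the DNAJB sum. These sums are not cytosolic alone: DNAJA holds the mitochondrial Dnaja3, and DNAJB holds the ER members Dnajb9, Dnajb11, Dnajb12 and Dnajb14.

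The HSP110 proteins, the exchange factors of the cytosolic HSP70 cycle, showed log2 fold changes of 1.04 to 1.34, and 2 of the 3 were called. Hspa4 (Apg-2) stood at 20.3, 23.0 and 22.7 in HFD and at 47.8, 52.4 and 39.7 in LYC (log2 fold change 1.04, SE 0.24, limma adjusted p = 0.028). Hspa4l (Apg-1) was at 7.73, 5.35 and 7.88 against 24.0, 19.8 and 14.1 (1.33, SE 0.32, adjusted p = 0.031). The call of Hspa4 held in 2 of 6 fits with 1 library omitted and was lost with scaling by total library size. Hsph1 (Hsp105), the member of this family best known for heat induction, was not called, and HFD 1 overlapped LYC 3: 24.4, 10.5 and 12.1 in HFD against 61.1, 39.0 and 24.2 in LYC (1.34, SE 0.42, adjusted p = 0.0715). It passed in the count tests, as given in the closing section.

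Of the 2 cytosolic HSP90 genes, 1 was called. The inducible form Hsp90aa1 (chr12:110691036-110696395) stood at 76.6, 46.6 and 64.4 in HFD and at 319, 222 and 169.98 in LYC, 3.79 times the mean (62.5 ± 15.1 to 237 ± 75.5, SD, n = 3; log2 fold change 1.89, SE 0.30, limma adjusted p = 0.00747). The constitutive form Hsp90ab1 was at 259.5, 200.2 and 246 against 453, 366 and 289.9, separated but not called (0.64, SE 0.25, limma adjusted p = 0.132). On the RPKM as deposited the groups overlapped for Hsp90ab1, with HFD 1 at 269.8 and LYC 3 at 267.1. Within each library the ratio of the inducible to the constitutive form was 0.295, 0.233 and 0.262 in HFD and 0.703, 0.607 and 0.586 in LYC. Hsp90ab1 was the more abundant form in all 6 libraries, and the ratios of the 2 groups did not overlap. This and the ratios below were chosen after the values were seen and carry no test.

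The small heat shock proteins, which hold unfolded chains without ATP, were mostly near the floor, and 2 of the 8 could be tested. Hspb8, a partner of the co-chaperone BAG3 in selective autophagy, was the most abundant of them at 45.5, 48.6 and 57.9 in HFD and 88.9, 109 and 42.0 in LYC, where 1 LYC library lay below the whole of HFD (0.55, SE 0.36, limma adjusted p = 0.334). Hspb1 (Hsp25) was at 27.0, 13.9 and 29.8 against 66.6, 39.0 and 29.2, again overlapping (0.89, SE 0.39, adjusted p = 0.167). Neither was called. In both, LYC 3 was the lowest LYC library, as it was in 12 of the 14 members called higher and in 21 of the 25 cytosolic members tested.

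**Figure D3:**
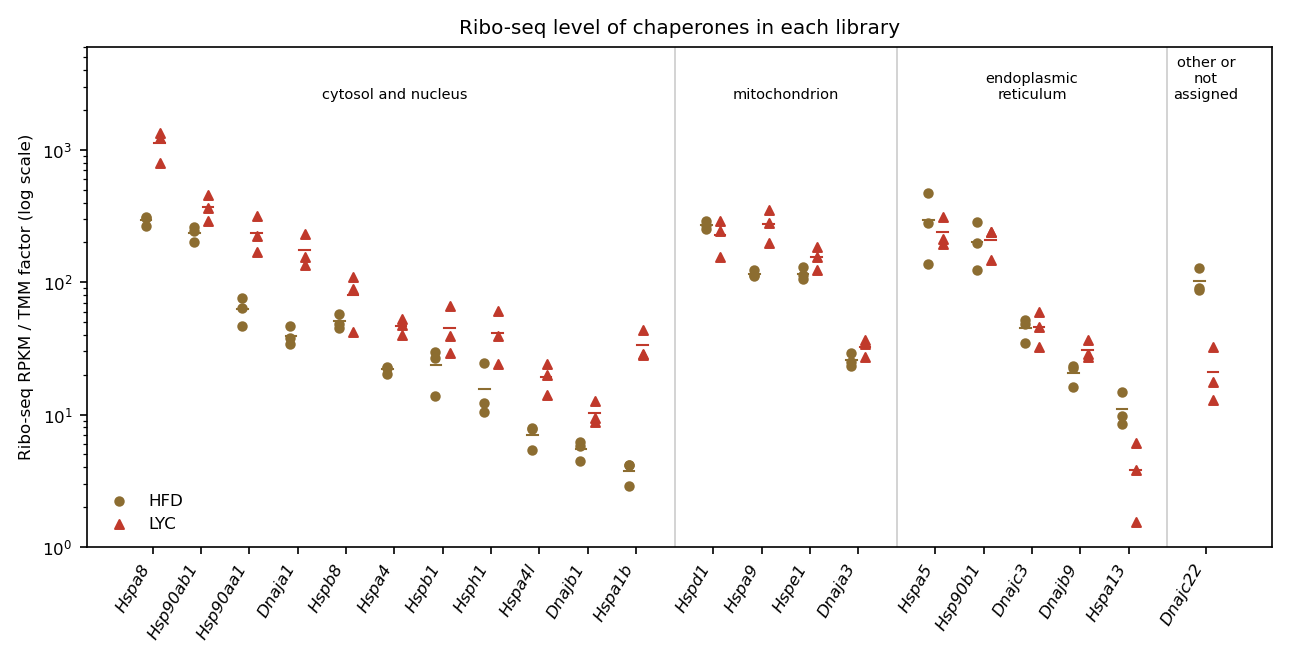
Scaled RPKM (log axis) of main members in each HFD and LYC library, with points for single libraries and short lines for the mean of 3. Hspa8, Hspa1b, Hsp90aa1 and Dnaja1 have every LYC point above every HFD point, whereas Hspa5, Hsp90b1 and Hspd1 overlap.

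The stretch before the transcription start is shown for the pair of called genes in which the heat shock element, the site read by heat shock factors, was found as the letters GAANNTTC (a palindrome, and so the same on both strands). Sequences are those of RefSeq on GRCm38.p6. The promoter set used here held a window (250 bases before the start site to 50 after) for 67 of the 82 members. In the 250 bases that precede each start, in gene direction, the match is in capitals.
Dnaja1: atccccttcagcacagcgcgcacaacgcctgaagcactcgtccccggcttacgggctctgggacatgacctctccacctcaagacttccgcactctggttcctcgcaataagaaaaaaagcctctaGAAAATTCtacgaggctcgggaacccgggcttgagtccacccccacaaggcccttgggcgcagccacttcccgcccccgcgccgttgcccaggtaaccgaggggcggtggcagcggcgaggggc
Hspa1b: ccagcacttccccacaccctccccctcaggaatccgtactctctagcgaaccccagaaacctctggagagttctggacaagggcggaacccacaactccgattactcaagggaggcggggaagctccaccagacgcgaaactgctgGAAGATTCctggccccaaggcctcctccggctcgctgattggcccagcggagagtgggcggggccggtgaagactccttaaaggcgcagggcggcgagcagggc
The first lies at chr4:40722218-40722467 on the plus strand and the second at chr17:34959239-34959488 on the minus strand. The match reads GAAAATTC in Dnaja1, 124 to 117 bases before the start, and GAAGATTC in Hspa1b, 104 to 97 bases before it, and the window of Hspa1a holds the same letters as that of Hspa1b at that place. Of the 67 windows of members, 16 (23.9%) held these letters, against 9.04% of the 27025 genes with a window. Among the called members, Hspa8, Hsp90aa1, Hspa9, Dnajc2, Cct4 and Dnajc22 have no entry in the promoter set used here. The letters were present in 2 of the 9 windows of members called higher, in 7 of the 25 of members tested and not called, in 13 of the 38 cytosolic windows and in 0 of the 11 ER windows. A match of letters is a description of the window and not a measured binding site.

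The cytosolic chaperonin CCT is built from 8 different subunits, each present once in either ring, and all 8 had fold changes above 0, although 4 were called. Cct4 stood at 28.2, 27.8 and 17.2 scaled RPKM in HFD and at 80.5, 79.7 and 48.2 in LYC (log2 fold change 1.47, SE 0.31, limma adjusted p = 0.0208). Cct8 was at 44.0, 47.5 and 27.9 against 94.0, 99.0 and 73.8 (1.17, SE 0.28, adjusted p = 0.0307), and Cct6a at 33.3, 37.2 and 31.2 against 91.9, 78.1 and 55.8 (1.10, SE 0.26, adjusted p = 0.0303). In each of them the lowest LYC library was above the highest HFD library. Cct5 was at 41.7, 39.1 and 34.5 against 63.5, 105 and 70.9 and met the fold limit narrowly (1.00, SE 0.27, limma adjusted p = 0.0427). With any 1 of HFD 1, HFD 2, HFD 3 or LYC 2 left out, Cct5 was no longer called. Cct6a was called in 3 and Cct8 in 4 of the 6 fits that left out 1 library, and Cct5, Cct6a and Cct8 were all lost with scaling by total library size.

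The other subunits lay lower on the same axis. Tcp1 (CCT1) was at 33.6, 38.3 and 36.3 in HFD and 104, 75.6 and 43.6 in LYC, separated but widely spread (0.94, SE 0.33, limma adjusted p = 0.0964). On the RPKM as deposited Tcp1 overlapped, with HFD 2 at 48.4 and LYC 3 at 40.2. Cct3 was at 37.5, 28.3 and 35.2 against 64.7, 75.2 and 35.0 (0.71), and Cct2 at 27.6, 28.5 and 41.8 against 52.0, 55.6 and 36.9 (0.55), each overlapping through LYC 3. Cct7 (chr6:85451505-85468477) was at 21.9, 18.2 and 22.4 against 25.8, 26.1 and 17.2, and its log2 fold change of 0.12 had a 95% interval of -0.51 to 0.76 (limma adjusted p = 0.808), so a rise as large as that of Cct4 lies outside it.

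As the mean of the 8 subunits, the ring stood at 33.5, 33.1 and 30.8 scaled RPKM in HFD and at 72.0, 74.2 and 47.7 in LYC, 1.99-fold. HFD libraries were close to each other, and all LYC libraries lay above them. The subunits were less even in LYC: their coefficient of variation within a library was 22.3%, 27.6% and 26.0% in HFD and 35.6%, 33.2% and 39.7% in LYC, and the most abundant subunit exceeded the least abundant by 2.01, 2.61 and 2.42 times in HFD and by 4.01, 4.01 and 4.29 times in LYC. Cct7 was the least abundant subunit in 5 of the 6 libraries, and Cct4 in HFD 3. LYC libraries hold fewer reads, and the part of counting error in this unevenness was not tested. The testis form Cct6b held 3 reads in each group, and Cct8l1 was listed at 0 throughout.

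**Figure D4:**
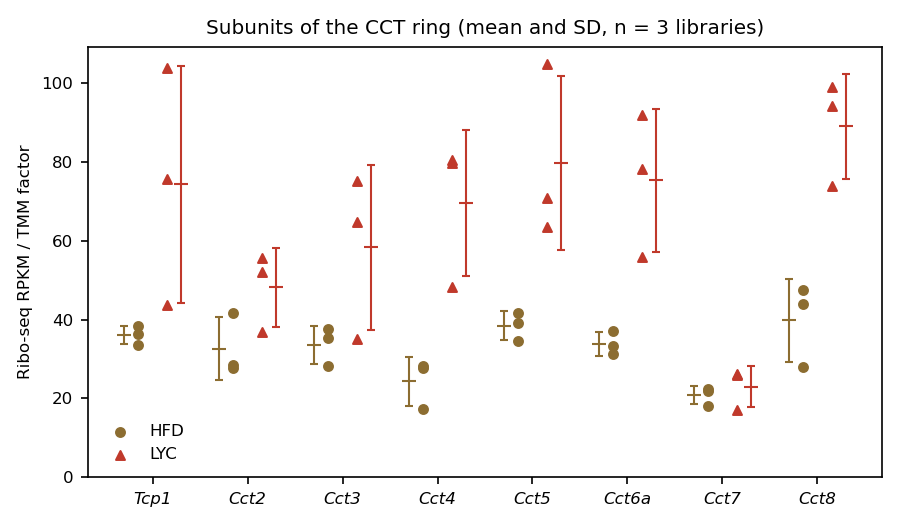
Scaled RPKM of the 8 CCT ring subunits (x axis), with a point for each of the 3 HFD and 3 LYC libraries and bars for the mean and SD. Most subunits lie higher in LYC, where the ring mean is 47.7 to 74.2 against 30.8 to 33.5 in HFD, while Cct7 stays at 17.2 to 26.1 in both.

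In the mitochondrion, the HSP70 was called and the chaperonin was not. Hspa9 (mortalin), which pulls precursors through the inner membrane and folds them, stood at 113, 123 and 111 in HFD and at 279, 351 and 199 in LYC, 2.39 times the mean (116 ± 6.49 to 276 ± 76.1, SD, n = 3; log2 fold change 1.21, SE 0.26, limma adjusted p = 0.0211). HFD values were within a narrow band and every LYC library was above it. HSP60 (Hspd1, chr1:55077833-55088243) was at 271, 289 and 253 against 290.01, 243 and 155 (log2 fold change -0.29, 95% interval -0.91 to 0.34, adjusted p = 0.513). Its lid HSP10 (Hspe1, chr1:55088148-55091317) was at 129.6, 105 and 114 against 185, 154 and 123 (0.39, SE 0.24, adjusted p = 0.31). Neither was called and both overlapped.

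The ratio of Hspa9 to Hspd1 within a library was 0.415, 0.426 and 0.438 in HFD, but 0.962, 1.44 and 1.29 with lycopene. The mortalin signal was thus less than the HSP60 signal in every HFD library and near or above it in LYC. The ratio of Hspd1 to Hspe1 was 2.09, 2.74 and 2.22 in HFD and 1.56, 1.58 and 1.25 in LYC, again without overlap, although neither gene was called. The mitochondrial J proteins Dnaja3 (Tid1), Dnajc11 and Dnajc19 had log2 fold changes of 0.32, 0.36 and -0.94. Dnajc19, a part of the import motor, was at 10.9, 14.0 and 10.0 in HFD and 8.46, 3.42 and 5.63 in LYC, with no overlap but not called (limma adjusted p = 0.123).

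Hspd1 and Hspe1 are transcribed in opposite directions from ends that overlap in the annotation. A stretch before the start of Hspe1 also lies before the inner of the 2 starts that RefSeq gives for Hspd1 (inside the span of Hspd1 given above), and it is shown because it holds the longer form of the heat shock element, 3 units in a row (GAANNTTCNNGAA or its reverse complement TTCNNGAANNTTC), as 2 overlapping matches that make up 4 units. It is printed from chr1:55088054-55088081 with the units in capitals, first in the direction of Hspe1 on the plus strand and then in that of Hspd1 on the minus strand. The match of Hsph1 follows, at chr5:149636287-149636301 on the minus strand. Unlike the others it lies after the start, at 36 to 48 or 15 to 27 bases depending on the start site taken.
Hspe1: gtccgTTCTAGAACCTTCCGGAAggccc
Hspd1: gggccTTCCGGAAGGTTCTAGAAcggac
Hsph1: aTTCTGGAAAGTTCt
The 3-unit form was found in 4 of the 67 windows of members (Dnajb6, Hspd1, Hspe1 and Hsph1, 5.97%) and in 0.662% of all windows. None of those 4 genes was called by limma.

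**Figure D5:**
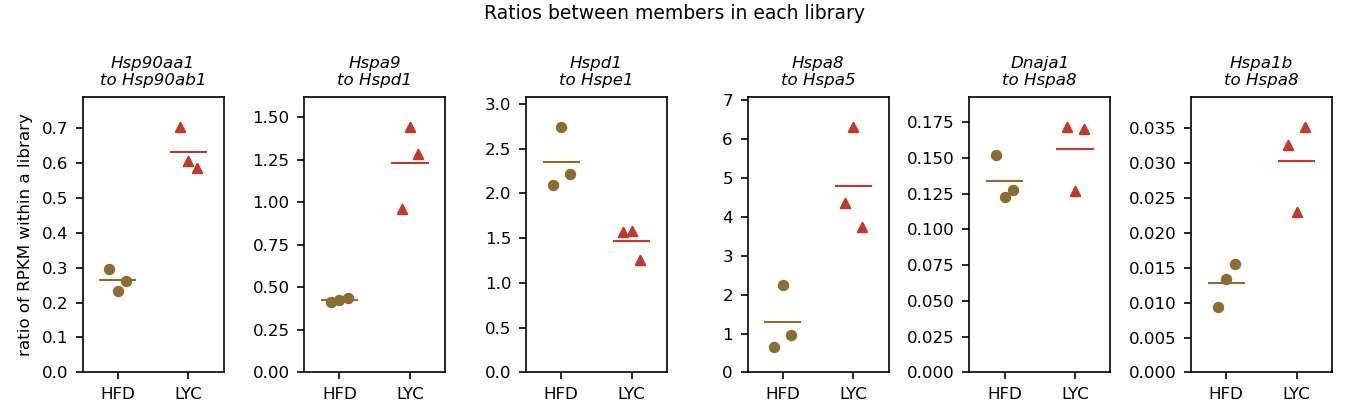
Ratios of RPKM between pairs of members within each library, HFD and LYC side by side in a panel of its own linear scale for each pair, with short lines for the means. Hsp90aa1 over Hsp90ab1 and Hspa9 over Hspd1 do not overlap between the groups (0.233 to 0.295 against 0.586 to 0.703, and 0.415 to 0.438 against 0.962 to 1.44), whereas Dnaja1 over Hspa8 overlaps.

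In the endoplasmic reticulum the leading chaperones were near those of the cytosol in HFD, well below them in LYC for the HSP70 pair, and varied more within the HFD group than between the group means. Hspa5 (BiP, the ER HSP70 and a regulator of the unfolded protein response, chr2:34772090-34776529) stood at 473, 138 and 278 in HFD and at 309.8, 196 and 213 in LYC. The LYC values fell inside the HFD range (log2 fold change -0.16, 95% interval -1.13 to 0.80, limma adjusted p = 0.832). Hsp90b1 (Grp94, the ER HSP90) was at 284, 124 and 198 against 239, 148 and 239.5 (0.09, SE 0.35, adjusted p = 0.887). Dnajc3 (p58IPK), an ER J protein, was at 51.5, 35.0 and 48.6 against 59.2, 32.7 and 46.2 (0.01, SE 0.30, adjusted p = 0.988). For these genes HFD 1 was the highest and HFD 2 the lowest HFD library, an order shared more widely: of the 10 ER members tested, HFD 1 was the highest HFD library in 7 and HFD 2 the lowest in 9, and LYC 2 was the lowest LYC library in 8.

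The 3 genes above are also the members whose windows held the ER stress element, the letters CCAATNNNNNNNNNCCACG or, on the other strand, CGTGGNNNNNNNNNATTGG, which are those bound by NF-Y and ATF6. This element was in 3 of the 11 ER windows, in none of the other 56 windows of members and in 0.137% of all windows. The 250 bases before each start are shown with the matches in capitals.
Hspa5: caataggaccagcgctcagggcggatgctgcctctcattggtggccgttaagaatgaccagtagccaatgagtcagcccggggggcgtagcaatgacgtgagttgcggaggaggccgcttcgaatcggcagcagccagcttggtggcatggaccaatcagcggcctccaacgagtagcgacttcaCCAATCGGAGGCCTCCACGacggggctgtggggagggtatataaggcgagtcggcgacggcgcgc
Hsp90b1: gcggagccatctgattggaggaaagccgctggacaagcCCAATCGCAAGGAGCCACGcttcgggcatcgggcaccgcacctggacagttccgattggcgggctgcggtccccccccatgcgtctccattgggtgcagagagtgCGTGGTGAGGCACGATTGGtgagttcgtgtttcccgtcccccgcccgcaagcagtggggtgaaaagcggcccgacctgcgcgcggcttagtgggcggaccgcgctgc
Dnajc3: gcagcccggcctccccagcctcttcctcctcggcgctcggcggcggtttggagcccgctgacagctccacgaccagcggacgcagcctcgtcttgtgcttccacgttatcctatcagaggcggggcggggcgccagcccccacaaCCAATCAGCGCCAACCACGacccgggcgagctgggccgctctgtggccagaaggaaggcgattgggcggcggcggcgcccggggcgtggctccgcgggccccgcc
These are chr2:34771840-34772089 on the plus strand, chr10:86705445-86705694 on the minus strand and chr14:118937682-118937931 on the plus strand. Hspa5 has 1 match, 65 to 47 bases before the start, Hsp90b1 has 2, at 212 to 194 and 107 to 89 bases, and Dnajc3 has 1, at 105 to 87 bases.

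Other ER members differed in direction. Dnajb9 (ERdj4), a target of the XBP1 branch of that response, was at 23.1, 16.3 and 22.6 in HFD and at 28.9, 27.4 and 36.7 in LYC, with every LYC library above HFD but not called (0.57, SE 0.27, limma adjusted p = 0.196). As deposited, its groups overlapped, with HFD 1 at 24.0 RPKM and LYC 1 at 23.1. Hspa13 (Stch), a microsomal HSP70 without the peptide-binding part, was at 14.9, 8.46 and 9.83 against 6.09, 1.54 and 3.80, with every LYC library below HFD (-1.41, SE 0.43, adjusted p = 0.0682). Its p missed the limit of 0.01 for limma, and it was called lower by edgeR on the RNA-labelled table. Dnajc10 (ERdj5), a J protein with disulfide reductase activity, was at 7.92, 6.51 and 6.92 against 3.90, 1.58 and 4.55 (-0.97, adjusted p = 0.121). Dnajb11, Dnajb12, Dnajc1 and Dnajc14 overlapped, at log2 fold changes of 0.29, -0.32, -0.08 and -0.73.

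The contrast between the cytosolic and the ER HSP70 could be read within single libraries. The ratio of Hspa8 to Hspa5 was 0.651, 2.24 and 0.962 in HFD and 4.36, 6.31 and 3.74 in LYC. In all LYC libraries Hspa8 exceeded Hspa5 severalfold, whereas in 2 of the 3 HFD libraries it was below it. The spread of this ratio within HFD comes with that of Hspa5, since Hspa8 was at 268 to 309 there.

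The member that fell, Dnajc22 (chr15:99099134-99104709), is a J protein predicted to span the membrane, the mouse counterpart of the fly gene wurst of clathrin-mediated endocytosis. It was the most abundant DNAJC gene in HFD, at 87.8, 90.9 and 127 scaled RPKM, and stood at 13.0, 17.5 and 32.4 in LYC. The highest LYC library was below the lowest HFD library by a wide gap (102 ± 21.8 to 21.0 ± 10.2, SD, n = 3; log2 fold change -2.31, SE 0.35, limma adjusted p = 0.00575, 4.94-fold lower on the fitted scale), on 1263 and 32 reads. With it, the DNAJC family sum was lower in LYC (271, 266 and 318 against 224, 195 and 183), the only family whose LYC libraries all lay below HFD. Without Dnajc22 the sum was 183, 175 and 191 in HFD against 211, 177 and 150.5 in LYC, and the groups overlapped. Dnajc5 (cysteine string protein, of secretory vesicles) and Dnajc13 (RME-8, of endosomes), the other tested members outside the 3 compartments, overlapped at -0.20 and 0.04.

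The 38 members that were not tested were low or absent. Of these, 8 were listed at 0 in all 6 libraries, and the others averaged at most 13.6 scaled RPKM over the libraries. At 0 in every LYC library and above 0 in HFD were 9, with at most 24 HFD reads each, which at the depth of LYC is not a detectable difference. Dnajb3 alone was seen in LYC and not in HFD, with 1 read. Dnajc28 was the one of them with the most LYC reads, at 11.3, 12.4 and 3.91 against 3.25, 2.29 and 2.08 in HFD.

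The partners of these machines were taken from a list of 56 other chaperone-network genes, chosen with earlier results of these data known. Of these, 39 were tested, 6 rose and 2 fell, with a median log2 fold change of 0.18. The shares were 15.4% and 5.13%, against 6.97% and 6.49% of all tested genes, so that the share that fell was near the background. The risers were 4 HSP90 co-chaperones and 2 prefoldin subunits. Of 16 tested HSP90 co-chaperones 4 rose: Stip1 (Hop, the bridge from HSP70 to HSP90) from 20.3 ± 6.26 to 48.0 ± 9.78 scaled RPKM (SD, n = 3; log2 fold change 1.22, limma adjusted p = 0.035), Chordc1 from 10.8 ± 4.37 to 42.2 ± 6.50 (1.93, adjusted p = 0.00903), Ppid (cyclophilin 40) from 8.22 ± 1.32 to 31.1 ± 4.27 (1.80, adjusted p = 0.00575) and Ahsa2 from 2.50 ± 0.888 to 12.8 ± 0.782 (2.01, adjusted p = 0.00736). Ppp5c, the phosphatase that docks on HSP90, fell from 15.8 ± 4.98 to 5.62 ± 1.74 (-1.34, adjusted p = 0.0394).

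Prefoldin hands actin and tubulin to CCT. Of 6 tested genes of prefoldin and CCT cofactors, Pfdn1 rose from 8.19 ± 2.06 to 48.7 ± 10.5 (SD, n = 3; log2 fold change 2.43, limma adjusted p = 0.00201) and Pfdn2 from 5.54 ± 0.526 to 26.0 ± 5.92 (2.02, adjusted p = 0.00469). Among the other prefoldin subunits Pfdn5 was not called (0.39), and Pfdn4, Pfdn6 and Vbp1 were not tested. Vbp1 was at 3.09, 3.25 and 5.84 in HFD (51 reads) against 1.98, 2.00 and 1.64 in LYC, where each value is a single read (1 per library). No gene among the 9 tested HSP70 exchange and BAG factors was called by limma, and none of 3 tested regulators. Sets this small cannot be set apart from the 13.5% of all tested genes called in either direction. Hsf1, which encodes heat shock factor 1, was too low to test, at 3.72 ± 0.833 in HFD and 3.44 ± 1.69 in LYC (SD, n = 3), and Hsf2 was at a log2 fold change of -0.23 (limma adjusted p = 0.694). Clpx, the unfoldase of the mitochondrial ClpXP protease, fell from 70.2 ± 7.21 to 24.6 ± 2.72 (-1.48, adjusted p = 0.00721).

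Fitted on its own counts with edgeR, the RNA-labelled table called 16 of 46 tested members higher and 2 lower, against 9.31% and 7.33% of all its tested genes (16.6% in either direction). Of these, 13 higher calls and the lower call of Dnajc22 were shared with the Ribo-seq table, and Hspa1a, Hsph1 and Tcp1 were added. Since the reads are nearly the same, this is a second processing of them and not a replication.

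When libraries were scaled by their total size alone, the members called higher numbered 7 and those called lower 4 (4.13% and 11.6% of all tested genes were called higher and lower there), and the median of all tested genes moved to -0.36 while that of the members was 0.28. The calls that held under that scaling were Hspa8, Hspa1b, Hsp90aa1, Dnaja1, Dnajb4, Hspa4l and Cct4, and the lower calls were Dnajc22, the ER members Hspa13 (-1.66) and Dnajc10 (-1.21) and the mitochondrial Dnajc19 (-1.20).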

How the data were processed

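The study sequenced liver of HFD and LYC mice, and 12 libraries were used here (3 per group and table). Per the methods of the study, the authors used cutadapt and Bowtie2 for read cleaning, STAR for alignment to mm10 and FANSE2 for quantification (the submitters' processing notes name cutadapt, Bowtie2 and mm10), and versions are not given in the sources used here. The Ribo-seq values were deposited by the authors as RPKM per gene, and the RNA-labelled values as counts and RPKM per gene. Whole reads were recovered from the RPKM steps (tolerance 0.01 reads) for all but 1 of the 15749 genes above 0. Gene lengths came from the RNA-labelled counts and RPKM together for 11057 and were fitted for 4691. On these reads edgeR called 489 genes higher and 409 lower in LYC. They set the filter (edgeR filterByExpr) and the TMM factors. Entries named as dates (26) carry no usable gene name, and 4 entries sharing a name were left out. All value columns were used.

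Genes passing the filter were fitted with limma 3.58.1 (mean-variance trend, two-sided) on log2(RPKM / TMM factor + 1), with pseudocount 1, and p-values were adjusted by Benjamini-Hochberg over all of them. The RNA-labelled counts were fitted with edgeR 4.0.16 (quasi-likelihood). The called limits, an absolute log2 fold change above 1 and p under 0.01, follow the results of the study, whose methods give 0.001 for the latter. The alternatives were other scalings, pseudocounts of 0.1 and 5, other filters and limits, edgeR and DESeq2 1.42.0 on recovered reads, removal of a length trend, a replicate block and leaving out each library. The scripts were tested on simulated data. Members were named with values if called, if the most abundant of their family, if CCT ring subunits, or if among the main chaperones of each compartment. A few further members outside that rule (among them Dnajb6, Hspa13, Dnajc10, Dnajc19 and Dnajc28) were chosen after their values were seen. Members, compartments and lists were chosen with earlier results of these data known. The result of 1 further cell type marker list is not reported here. R 4.3.3 and Python 3.11.15 were used.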

Additional observations from a re-analysis of the deposited data

How the results depend on the processing

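The 14 members called higher in the Ribo-seq table became 7 with scaling by total library size and 5 at p below 0.001, and ranged from 9 (without HFD replicate 3) to 18 (without LYC replicate 3) when 1 library was left out. The other settings, among them 16 calls each with edgeR and DESeq2 on recovered reads, stayed within 1.5 times the count. The 1 member called lower became 4 with scaling by total size and 2 without a filter, with edgeR and with DESeq2, and ranged from 1 to 4 with 1 library left out (4 without LYC replicate 3, 2 without LYC replicate 1 or 2). In the RNA-labelled table, 16 higher and 2 lower became 3 and 10 with scaling by total counts, and ranged from 14 to 19 and from 1 to 2 with 1 library left out. Of all tested genes, 11.6% were called lower with scaling by total size, 4.57% without a filter, 7.22% with edgeR, 6.88% with DESeq2 and 10.4% without LYC replicate 3, and with scaling by total counts 2.26% higher and 46.6% lower in the RNA-labelled table. At these settings the share of members called lower was below that of all genes. The cause of these shifts was not tested.

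Left out 1 at a time, every library kept the calls of Hspa8, Hspa1b, Hspa9, Hsp90aa1, Dnaja1, Dnaja2, Dnajb4, Cct4 and Dnajc22. The other calls were lost in some of these fits. Hspa4l was lost without HFD replicate 2 (log2 fold change 1.15), Dnajc2 without LYC replicate 1 (1.18), Cct8 without HFD replicate 3 (0.91) or LYC replicate 1 (1.13), and Cct6a without HFD replicate 1 (1.08), HFD replicate 3 (1.02) or LYC replicate 1 (0.95). Cct5 was lost without HFD replicate 1, 2 or 3 (1.05, 0.99 and 0.90) or LYC replicate 2 (0.79), as was Hspa4 (0.98, 1.05, 1.04 and 0.96). Dnajc2 could be tested in 3 of the 6 fits. With scaling by total size, the calls of Cct5, Cct6a, Cct8, Dnaja2, Dnajc2, Hspa4 and Hspa9 were lost. At pseudocount 5, Cct5 (0.94), Dnajc2 (0.97) and Hspa4 (0.93) fell under the fold limit, as did Cct5 (0.96) with the length trend removed. Hsph1 and Tcp1 were called with edgeR and DESeq2 on recovered reads.

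Signs turned only in members that were not called. Scaling by total size gave log2 fold changes of -0.15 for Cct7, -0.27 for Dnajc3 and -0.19 for Hsp90b1. Without HFD replicate 2, LYC replicate 1 or LYC replicate 3, Dnajc3 stood at -0.18, -0.18 and -0.05 and Hsp90b1 at -0.24, -0.01 and -0.06, and without HFD replicate 1 Hspa5 stood at 0.25. Over all libraries left out in turn, Dnajc3 ranged from -0.18 to 0.23, Hsp90b1 from -0.24 to 0.37 and Hspa5 from -0.65 to 0.25.

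The replicate numbers were not used to pair the samples. The deviations of libraries with the same number correlated at 0.106, 0.0257 and -0.00383 across 5667 genes, and those with different numbers at -0.104 to 0.0696. Whether libraries of the same number shared a batch was not tested, and at the depth of LYC such correlations cannot settle it. With a replicate block, 15 members were called higher and 2 lower. TMM factors over protein-coding genes, a setting chosen after seeing the data, gave 14 and 1. LYC depth limits what could be tested: the called members rested on as few as 26 LYC reads.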
